A study of Mus musculus with 2 samples.

Results

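Suprabasal keratinocytes are the cells that have left the basal layer of the epidermis and are moving towards the skin surface. In this library of mouse skin they were 317 of 8367 cell barcodes, or 3.79% (exact 95% binomial interval 3.39 to 4.22). They were also 317 of 1197 epithelial barcodes, or 26.5% (24.0 to 29.1). Members were chosen by measured transcript counts of the same library. A barcode was a member when it had at least 200 genes, at most 20% mitochondrial transcripts, at most 3 Dcn transcripts and 0 Ptprc transcripts. It also needed at least 20 transcripts of Krt5, Krt14, Krt1 and Krt10 together per 10000, fewer than 5 of Krt79 and fewer than 3 of Postn, Lhx2 and Sox9 together. The last condition was more Krt1, Krt10 and Krtdap transcripts than Krt5 and Krt14 transcripts. Transcripts are given as unique molecular identifiers (UMIs), the tags that mark single captured RNA molecules.

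The skin came from 8 week old C57BL/6 mice at steady state, some of them depleted of neutrophils over 2 consecutive days with the anti-Ly6G antibody clone 1A8 and the rest controls, of which the labels give no further treatment. The cells were freed with Liberase and DNAseII, tagged with hashtag antibodies that mark control or depleted skin, and pooled into 1 droplet library. The hashtag library was not analysed here and no condition is known for a barcode, so depleted and control skin could not be compared and each value below mixes both. With 1 library there is no replicate and no test. Intervals are exact Poisson or binomial 95% intervals of counting error and leave out the spread between barcodes, between mice and between libraries.

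The epidermis renews itself from a basal layer that divides and is anchored to the basement membrane by hemidesmosomes. Cells that detach stop dividing, exchange the keratin pair Krt5 and Krt14 for Krt1 and Krt10, strengthen their desmosomes, and later make the lipids and crosslinked proteins of the cornified layer. Notch signalling between neighbouring cells and factors such as Grhl3 and Zfp750 are known to drive this change in mouse epidermis.

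The members were set against the 880 other epithelial barcodes that passed the same steps. Of these, 712 were basal interfollicular barcodes, which met the same other limits of the rule but had no more Krt1, Krt10 and Krtdap than Krt5 and Krt14. The rest were 158 barcodes with Postn, Lhx2 and Sox9 that are called lower follicle here, and 10 with Krt79, too few to describe alone. Members held 804 to 54954 UMIs (median 12221) and other epithelial barcodes 628 to 30203 (median 10412). The median mitochondrial share was 2.01% in members and 2.28% in other epithelial barcodes. Levels are UMIs per 1000000 of a group's total (CPM), which was 3720330 UMIs in members and 9179680 in other epithelial barcodes. The deepest member alone held 54954 UMIs, or 1.48% of the total, against 27099 UMIs in the next. Its part is given beside several of the genes it weighs on. It also held 26.5% of the members' UMIs of Gsdma, 18.3% of Cst6, 17.9% of Hal, 17.1% of Crabp2, 13.7% of Spink5 and 12.3% of Sbsn.

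The genes of the rule only describe the choice. Krt10, the type I keratin partner of Krt1, had 8375 CPM in members and 337 CPM in other epithelial barcodes. Krt1 had 3253 CPM in members and 97.7 CPM in the others, and Krtdap, a small secreted keratinocyte protein, had 6899 CPM in members and 63.2 CPM in the others. Krt5 had 1746 CPM in members and 4853 CPM in the others, and Krt14 had 187 CPM in members and 6372 CPM in the others. The share of Krt1, Krt10 and Krtdap in the sum of these 5 genes, called the suprabasal keratin share below, had its lowest value in members at 0.507 and its median at 0.949, and 86 members were at 1. The 29 members just inside the threshold, with a share of 0.5 to 0.6, had a median of 59 suprabasal against 48 basal keratin UMIs. The 24 barcodes just outside it, with a share of 0.4 to 0.5, had medians of 43.5 and 55.5.

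**Figure D1:**
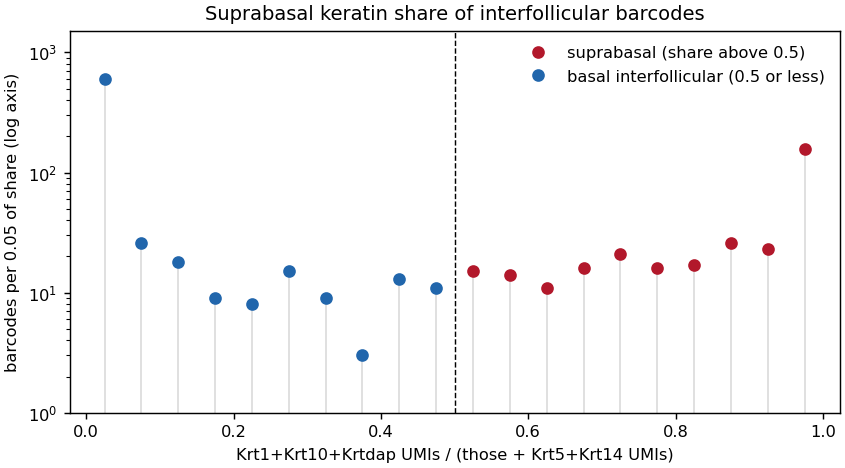
Number of interfollicular barcodes (vertical log axis) in steps of 0.05 of the suprabasal keratin share (horizontal axis), with the 317 suprabasal members in red, the 712 basal interfollicular barcodes in blue and the threshold as a dashed line. Both ends are crowded, and every step between holds 3 to 26 barcodes, so few barcodes lie at the threshold.

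Krt77 and Mt4, markers of suprabasal epidermis that the rule did not use, were both high in the group. Krt77, a type II keratin, had 9355 UMIs in members, or 2515 CPM (2464 to 2566), against 63.9 CPM in other epithelial barcodes, a ratio of 39.3 (36.2 to 42.8). Per member it was lowest at 0, with a median of 15.6 and a highest value of 141 UMIs per 10000, against a median of 0 and a highest value of 20.1 in the others. Mt4, the metallothionein of stratified epithelia, had 1594 CPM (1554 to 1636) in members and 58.5 CPM in the others, a ratio of 27.3 (24.9 to 29.8). Krt77 was seen in 302 of the 317 members, Mt4 in 294, both in 281 and neither in 2. After thinning each barcode to 2000 UMIs, which left out 9 members and 4 basal barcodes, Krt77 was seen in 82.5% of members, 8.90% of basal and 0.633% of fibroblast barcodes (Dcn at 10 UMIs or more), which should lack it and had a median of 11585 UMIs before thinning. Without thinning, Krt77 was seen in 95.3% of members and 24.7% of basal barcodes. At the threshold, Mt4 had 1493 CPM just inside and 785 CPM just outside, and Krt77 had 789 CPM just inside and 367 CPM just outside.

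The other keratins differed among themselves. Krt78, a type II keratin next to Krt79 in the cluster on chromosome 15 (chr15:101946001-101954287, mm10), had 246 UMIs in members, or 66.1 CPM (58.1 to 74.9), and 0 UMIs in all 880 other epithelial barcodes, at least 202-fold higher against a floor of 3 UMIs in that group. The whole table held 298 Krt78 UMIs. It was seen in 28.1% of members, or 6.82% after thinning, against 0.0275% of thinned fibroblast barcodes. Krt80, a type II keratin of differentiating epithelia, had 331 CPM in members and 130 CPM in the others, a ratio of 2.54 (2.35 to 2.76). Krt2, a keratin of the upper spinous and granular layers, had 25 UMIs in members (6.72 CPM) and 5.66 CPM in the others, which counting error alone does not separate (ratio 1.19, 0.705 to 1.95). Without the rule genes, 4 of the suprabasal keratins had at least 50 UMIs over both groups, called measured below, and 3 of them were at least 2-fold higher in members. Over all 10190 measured genes, 389 (3.82%) were 2-fold or more higher in members and 1398 (13.7%) were 2-fold or more lower, with a median log2 ratio of −0.14. Against basal interfollicular barcodes alone, 394 of 9836 measured genes (4.01%) were higher and 1117 (11.4%) lower, with a median of −0.10.

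Krt15, a type I keratin known from basal cells, stood near its basal level in the members. It had 6171 CPM (6092 to 6252) in members, 7476 CPM in basal and 5879 CPM in lower follicle barcodes, and the ratio to all other epithelial barcodes was 0.856 (0.843 to 0.869). Per barcode its median was 62.1 UMIs per 10000 in members (highest 174) and 71.3 in the others (highest 244.9), so the groups overlapped over most of their range. Krt17, a keratin of follicle and injured epidermis, had 163 UMIs in members, 99.4% of them in 10 barcodes, and 43.8 CPM against 304 CPM in the others. Krt6a, another such keratin, had 0 UMIs in members and 144 in the others. Of 5 measured basal and follicle keratins outside the rule 0 were higher and 3 lower, with a median log2 ratio of −2.79, or −5.52 among barcodes with Dcn at 0 UMIs. Both medians are the value of Krt17, which rests on few members. Against basal barcodes alone 1 of 3 such keratins was lower, beside 11.4% of all measured genes, with a median of −0.28. Of 3 genes of inner root sheath and hair shaft 1 was higher and 1 lower, beside 3.82% and 13.7% of all measured genes. All keratins together made up 2.28% of the members' UMIs and 2.05% of those of basal barcodes.

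The RefSeq starts (GRCm38.p6, the same sequence as mm10) of 6 suprabasal genes are shown because these genes are high in the members. For Krt10 and Krtdap the rule itself set this. Each run covers 250 bases before and 50 after the start, 5′ to 3′ on the gene's own strand. Capitals mark TATAAA in the 45 bases that end 5 bases before the start, and TGANTCA, the AP-1 motif, on either strand. The regions were chr11:99389315-99389614 (minus strand) for Krt10, chr7:30787655-30787954 (plus) for Krtdap, chr7:30751221-30751520 (plus) for Sbsn, chr8:94136954-94137253 (plus) for Mt4, chr15:101869656-101869955 (minus) for Krt77 and chr15:101954238-101954537 (minus) for Krt78.
Krt10: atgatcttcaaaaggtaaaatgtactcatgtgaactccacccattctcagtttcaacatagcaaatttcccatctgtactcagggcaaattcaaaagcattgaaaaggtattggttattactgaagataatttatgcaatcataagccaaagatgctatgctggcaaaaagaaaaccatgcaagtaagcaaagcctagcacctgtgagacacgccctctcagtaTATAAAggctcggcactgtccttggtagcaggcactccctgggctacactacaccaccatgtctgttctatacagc
Krtdap: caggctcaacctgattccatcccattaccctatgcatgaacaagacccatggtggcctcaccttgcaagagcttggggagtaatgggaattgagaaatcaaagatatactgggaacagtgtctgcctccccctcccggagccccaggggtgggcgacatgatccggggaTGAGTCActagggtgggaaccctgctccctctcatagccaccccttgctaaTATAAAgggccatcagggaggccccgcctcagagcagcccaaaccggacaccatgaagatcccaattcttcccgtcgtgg
Sbsn: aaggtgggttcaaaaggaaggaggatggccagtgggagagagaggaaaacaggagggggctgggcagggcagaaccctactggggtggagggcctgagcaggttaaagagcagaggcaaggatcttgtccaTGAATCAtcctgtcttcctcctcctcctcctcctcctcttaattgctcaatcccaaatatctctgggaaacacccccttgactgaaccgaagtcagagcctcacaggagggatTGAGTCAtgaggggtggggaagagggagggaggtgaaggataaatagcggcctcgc
Mt4: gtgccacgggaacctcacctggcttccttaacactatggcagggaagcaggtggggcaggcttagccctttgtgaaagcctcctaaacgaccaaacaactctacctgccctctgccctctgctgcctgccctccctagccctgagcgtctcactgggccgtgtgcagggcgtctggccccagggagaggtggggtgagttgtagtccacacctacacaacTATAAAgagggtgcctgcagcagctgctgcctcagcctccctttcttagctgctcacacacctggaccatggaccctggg
Krt77: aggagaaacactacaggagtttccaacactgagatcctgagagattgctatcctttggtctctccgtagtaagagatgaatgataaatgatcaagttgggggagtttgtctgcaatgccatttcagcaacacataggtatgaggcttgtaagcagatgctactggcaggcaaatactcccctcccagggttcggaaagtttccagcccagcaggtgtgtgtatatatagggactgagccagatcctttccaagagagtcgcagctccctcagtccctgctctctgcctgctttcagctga
Krt78: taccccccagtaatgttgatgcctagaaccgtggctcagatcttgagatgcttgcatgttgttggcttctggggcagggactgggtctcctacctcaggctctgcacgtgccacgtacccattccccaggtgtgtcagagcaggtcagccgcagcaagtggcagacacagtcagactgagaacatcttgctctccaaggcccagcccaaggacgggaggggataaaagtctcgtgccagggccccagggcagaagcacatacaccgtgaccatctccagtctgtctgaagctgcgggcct

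TATAAA began 26 bases before the start of Krt10 and 30 bases before the starts of Krtdap and Mt4. TGANTCA was found at −81 in Krtdap and at −119 and −6 in Sbsn, and neither motif was found in these windows of Krt77 and Krt78. RefSeq promoters were matched for 284 of the 389 genes that were higher in members, which include the rule genes Krt10 and Krtdap. Of their 362 promoters, 5.25% held TATAAA in that window, against 1.21% of the 10427 promoters of measured genes and 2.49% of all 32851 promoters. TGANTCA was in 11.6% of them, against 4.997% and 7.81%. AACCNGTT, a Grainyhead motif, was in 1.93% of them, against 1.84% and 2.09%, and TGGGAA, the core that RBPJ binds in Notch signalling, was in 20.4%, against 22.7% and 25.6%, all on both strands of 300 bases. These are descriptions of letters, not of bound sites.

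Most secreted and adaptor proteins of early differentiation were higher in members. Of 21 measured genes outside the rule, 16 were 2-fold or more higher and 2 lower, beside 3.82% and 13.7% of all measured genes. The median log2 ratio was 1.87. Ly6g6c, a small protein of the LY6 family, had 933 CPM in members and 20.8 CPM in other epithelial barcodes, a ratio of 44.9 (38.8 to 52.2). Sbsn, suprabasin, had 1567 CPM in members, 54.3 CPM in basal and 565 CPM in lower follicle barcodes. Dmkn, dermokine, a neighbour of Sbsn and Krtdap on chromosome 7, had 3707 CPM in members and 1017 CPM in the others. Lgals7, galectin-7, had 12715 CPM in members and was also abundant in the others at 6002 CPM. Calml3, a calmodulin-like protein, and Aqp3, a water and glycerol channel, were the 2 lower genes: Calml3 had 8.87 CPM in members, 1.64 CPM in basal and 261 CPM in lower follicle barcodes, and 24 of its 33 UMIs in members were in the deepest one. Aqp3 had 12.1 CPM in members, 19.9 CPM in basal and 463 CPM in lower follicle barcodes. Against basal barcodes alone, 16 of 20 measured genes of this list were higher and 0 lower, beside 4.01% and 11.4% of all measured genes.

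Mt4 differed from its neighbours on chromosome 8. Mt1, a metallothionein made in most tissues, had 1306 CPM in members and 2155 CPM in the others (ratio 0.606, 0.587 to 0.625). Mt2, the next gene of that cluster, had 446 CPM in members and 1071 CPM in the others (ratio 0.417, 0.395 to 0.439). The 3 genes lie within chr8:94137197-94180327.

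The Skint genes, which encode butyrophilin-like surface proteins and of which Skint1 is known in mice for selecting the epidermal γδ T cells, were high as a block. The cluster on chromosome 4 (chr4:111919392-113999503) held 10 coding genes in the table, of which 8 were measured, 7 were 2-fold or more higher in members and 0 lower. Skint5 had 540 UMIs in members (145 CPM) and 6 UMIs in the others (0.654 CPM), a ratio of 222 (101 to 608), or 170 without the deepest member, which held 133 of these UMIs. Skint6 had 529 CPM in members and 26.9 CPM in the others. Skint9 had 137 CPM in members and 4.14 CPM in the others. Skint1 itself had 90.8 CPM in members and 28.8 CPM in the others, a ratio of 3.16 (2.68 to 3.73). The epidermal differentiation complex on chromosome 3 (chr3:90511034-93526287) looked different: of 73 coding genes 13 were measured, 4 higher and 3 lower. Beside both clusters, 3.82% of all measured genes were higher and 13.7% lower. The span and the genes of these clusters were chosen after the values had been seen.

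**Figure D2:**
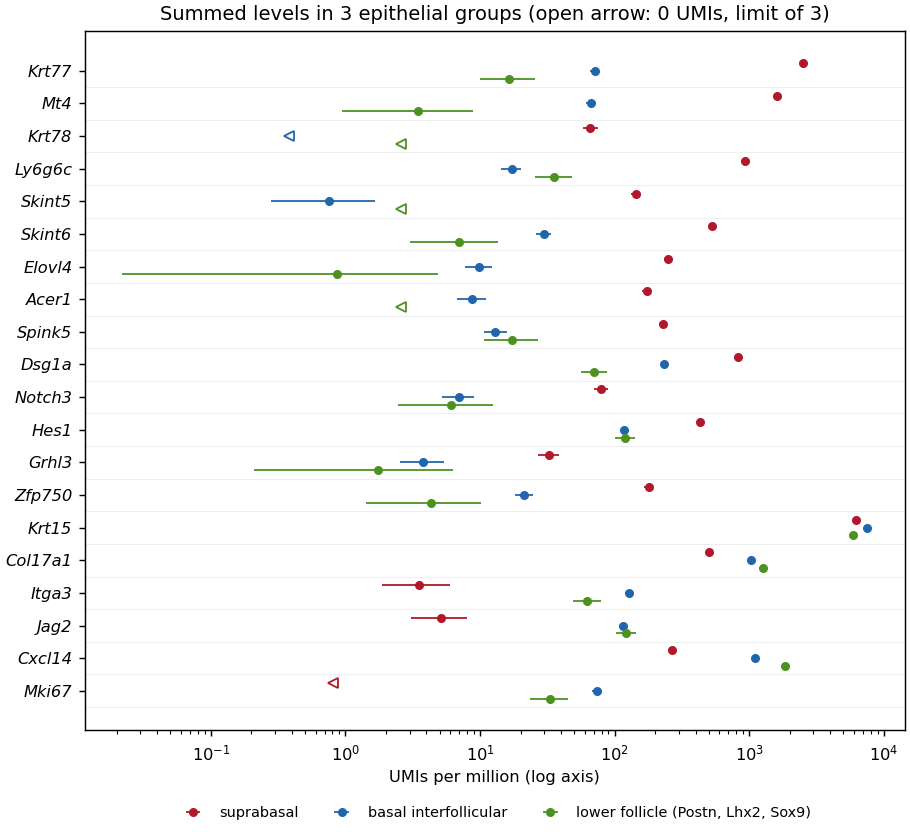
Summed levels of 20 genes in CPM (horizontal log axis) in suprabasal members (red), basal interfollicular (blue) and lower follicle barcodes (green), with exact 95% Poisson intervals of counting error; an open arrow marks 0 UMIs, drawn at the level of 3 UMIs. The upper 14 genes are highest in the members, Krt15 is close in all 3 groups, and Col17a1, Itga3, Jag2, Cxcl14 and Mki67 are lowest in the members.

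Genes of the cornified envelope, the crosslinked shell of dead surface cells, were mostly near or at 0. Of 49 such genes with a row, 7 were measured and 4 of those were higher, beside 3.82% of all measured genes. Their median log2 ratio was 1.55. The other 42 were below 50 UMIs over both groups, and 32 had 0 UMIs in members. Flg, filaggrin, had 0 UMIs in members, which allows up to 0.806 CPM, and Lor, loricrin, had 21 UMIs (5.65 CPM) in 18 members against 29 UMIs (3.16 CPM) in the others. The 21 late cornified envelope (Lce) genes together had 4 UMIs in members. A set of 25 late genes, made of Flg, Flg2, Hrnr, Lor and the Lce genes, had 33 UMIs in members, or 8.87 CPM, against 3.92 CPM in the others and 0.496 CPM in fibroblast barcodes. It was seen in 25 members (7.89%, 5.17 to 11.4) and in 31 of the other epithelial barcodes (3.52%, 2.41 to 4.96), against 0.545% of fibroblast barcodes.

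Evpl, Ppl and Scel are scaffold proteins of the envelope. Evpl, envoplakin, had 132 CPM in members and 45.1 CPM in the others, a ratio of 2.93 (2.56 to 3.34). Ppl, periplakin, had 185 CPM in members and 94.3 CPM in the others, and Scel, sciellin, 400 CPM in members and 209 CPM in the others, both just under 2-fold. Sprr1a, a small proline-rich protein, had 203 UMIs in 24 members and 71 UMIs in 17 of the others. Ivl, involucrin, had 41 UMIs in members and 17 in the others, a ratio of 5.95, or 3.09 without the deepest member. Cdsn, corneodesmosin, had 51 UMIs in 5 members and 5 UMIs in the others, a ratio of 25.2, or 11.5 without the deepest member. These 5 members held 28, 8, 6, 6 and 3 Cdsn UMIs at depths of 54954, 2373, 5728, 1647 and 2757 UMIs, each also had Klk5, Ivl and Sbsn, and none had Krt14 or Lor.

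Processing enzymes of the envelope were split. Of 7 measured genes 3 were higher and 2 lower, beside 3.82% and 13.7% of all measured genes. Casp14, the protease that trims filaggrin, had 24.5 CPM in members and 4.36 CPM in the others (ratio 5.61, 3.83 to 8.36). Asprv1, another filaggrin protease, had 86 UMIs in members and 32 in the others, a ratio of 6.63, or 4.07 without the deepest member, which held 34 of these UMIs. Cst6, a cathepsin inhibitor, had 194 CPM in members and 42.8 CPM in the others. Ctsl, cathepsin L, was lower at 27.2 CPM in members against 148 CPM in the others. Tgm5, a transglutaminase, had 1.88 CPM in members, 2.02 CPM in basal and 255 CPM in lower follicle barcodes. The transglutaminases Tgm1 and Tgm3 had 3 and 2 UMIs in members.

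Enzymes and transporters of the lipid barrier were higher in 12 of 28 measured cases and lower in 2 (3.82% and 13.7% over all measured genes). Their median log2 ratio was 0.75. Elovl4, which elongates the longest fatty acids of skin ceramides, had 250 CPM in members and 8.93 CPM in the others, a ratio of 28.0 (22.3 to 35.5). Sult2b1, which makes cholesterol sulphate, had 100.3 CPM in members and 5.23 CPM in the others. Acer1, an alkaline ceramidase, had 174 CPM in members, 8.71 CPM in basal and 0 UMIs in lower follicle barcodes. Abca12, the lipid transporter of lamellar bodies, had 229 CPM in members and 31.1 CPM in the others. Sptlc3, a subunit of the first enzyme of sphingolipid synthesis, had 272 CPM in members and 99.1 CPM in the others. Hmgcs1, of cholesterol synthesis, had 413 CPM in members and 270 CPM in the others and stayed inside 2-fold, as did Fasn, fatty acid synthase, at 31.5 CPM in members and 22.0 CPM in the others.

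Proteases and inhibitors of desquamation, the shedding of surface cells, were higher in 6 of 16 measured cases and lower in 2. Over all measured genes 3.82% were higher and 13.7% lower, and the list median was 0.85. Spink5, an inhibitor of kallikreins, had 229 CPM in members and 13.5 CPM in the others, a ratio of 16.9 (14.03 to 20.6). Klk5, the kallikrein that starts the cascade, had 109 UMIs in members and 4 in the others, a ratio of 67.2 (25.5 to 251), or 45.7 without the deepest member, and 74.3% of these UMIs were in 10 members. Tmprss4, a membrane serine protease, had 183 CPM in members and 19.4 CPM in the others, with 14.7% of its UMIs in 10 members. Serpinb3b, a serine protease inhibitor of the clade B serpins, had 47 UMIs in members and 3 in the others.

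Desmosomal genes, which hold keratinocytes together, differed within the desmoglein family. Of 10 measured genes, 5 were higher and 3 lower, beside 3.82% and 13.7% of all measured genes. Dsg1a, a desmoglein of upper layers, had 829 CPM (800 to 859) in members, 233 CPM in basal and 70.4 CPM in lower follicle barcodes. Dsg1b had 50.3 CPM in members and 14.5 CPM in the others. Other desmogleins were lower: Dsg3 had 40.3 CPM in members and 236 CPM in the others (5.86 times lower, 4.96 to 6.95), and Dsg2 had 4.84 CPM in members and 93.2 CPM in the others (19.3 times lower, 12.1 to 32.7). Dsc1, the desmocollin of upper layers, was below 50 UMIs over both groups, with 47 UMIs in members and 2 in the others, and 30 of the 47 were in the deepest member. Of the plaque genes, Jup, plakoglobin, had 647 CPM in members and 303 CPM in the others, and Dsp, desmoplakin, had 1266 CPM in members and 697 CPM in the others. Pkp4, a plaque protein related to plakophilins, was lower, at 81.4 CPM in members and 248 CPM in the others, which is 3.05 times lower (2.70 to 3.45).

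Of 20 genes of tight, adherens and gap junctions 7 were higher and 1 lower, beside 3.82% and 13.7% of all measured genes. Nectin4, an adhesion protein, had 67.5 CPM in members and 4.68 CPM in the others, a ratio of 14.4 (10.4 to 20.4). Tjp3, a tight junction adaptor, had 24.7 CPM in members and 5.77 CPM in the others. Gja1, connexin 43, had 85.8 CPM in members and 180 CPM in the others, and its log2 ratio of −1.07 was −0.99 with every barcode weighted the same, within 2-fold. Cdh1, E-cadherin, was within 2-fold at 501 CPM in members and 554 CPM in the others.

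The basal anchoring genes were lower as a group. Of 24 measured genes of hemidesmosomes and basement membrane, 19 were 2-fold or more lower in members and 0 higher, against a background of 13.7% lower, and the median log2 ratio was −2.45. Itga3, an integrin chain that binds laminin, had 13 UMIs in members (3.49 CPM) and 118 CPM in the others, 33.9 times lower (19.7 to 63.9). Itgb4, the hemidesmosome integrin, had 32.0 CPM in members and 184 CPM in the others, and its partner Itga6 256 CPM in members and 740 CPM in the others. Col17a1, the transmembrane collagen of hemidesmosomes, was nearer, with 506 CPM in members and 1051 CPM in the others. Dst, which links hemidesmosomes to keratin, had 312 CPM in members and 602 CPM in the others, and Cd151, a tetraspanin partner of integrins, 51.9 CPM in members and 72.9 CPM in the others.

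**Figure D3:**
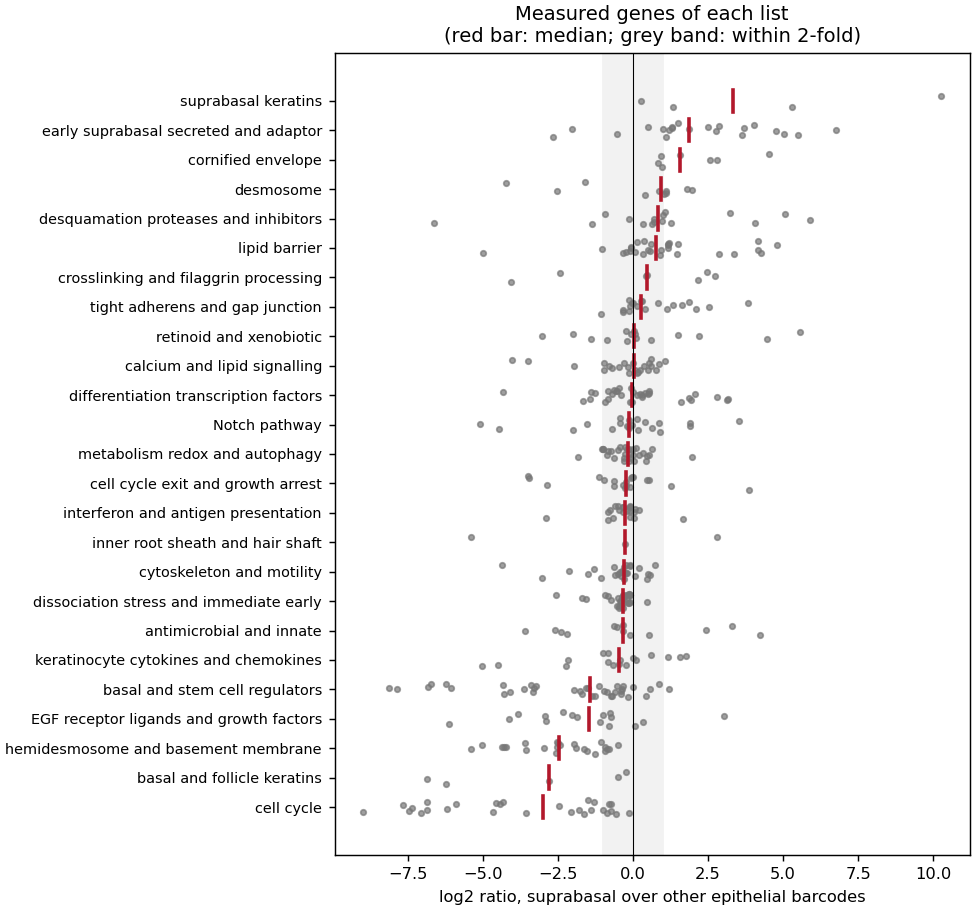
log2 ratio of suprabasal members over other epithelial barcodes (horizontal axis) for each measured gene of 25 gene lists (grey points), without the genes of the rule, with the list median as a red bar and the range within 2-fold shaded. Medians run from 3.32 for suprabasal keratins to −3.01 for the cell cycle, and most lists have genes on both sides of 0.

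Genes of the Notch pathway differed among themselves. Of 21 measured genes, 3 were higher and 4 lower, beside 3.82% and 13.7% of all measured genes, with a median of −0.13. Notch3, a receptor, had 79.3 CPM in members and 6.86 CPM in the others, a ratio of 11.5 (8.78 to 15.4). Notch1, the main epidermal receptor, was within 2-fold at 164 CPM in members and 125 CPM in the others. The target genes Hes1 and Nrarp had 432 and 53.2 CPM in members, against 117 and 14.2 CPM in the others, ratios of 3.70 (3.42 to 3.998) and 3.76 (2.997 to 4.73). The ligand Jag2 had 5.11 CPM in members and 115 CPM in the others, 22.5 times lower (14.4 to 37.6). Jag1, another ligand, was within 2-fold at 44.6 CPM in members and 51.85 CPM in the others. Dll1, also a ligand, had 4.30 CPM in members and 17.7 CPM in the others, and Lfng, which modifies Notch receptors, had 1 UMI in members and 127 in the others. Rbpj, the DNA-binding partner of cut Notch, had 49.7 CPM in members and 54.6 CPM in the others.

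Among 33 measured transcription factors of differentiation, 7 were higher and 5 lower, beside 3.82% and 13.7% of all measured genes. The median was −0.05. Grhl3, a Grainyhead factor of barrier formation, had 32.5 CPM in members and 3.59 CPM in the others (ratio 9.05, 6.11 to 13.7). Zfp750, a zinc finger factor of epidermal differentiation, had 179 CPM in members and 20.5 CPM in the others (ratio 8.75, 7.43 to 10.3). Foxn1, the factor mutated in nude mice, had 27.7 CPM in members and 3.92 CPM in the others. Ovol1, Grhl1 and Cebpa were also higher, with ratios of 4.22, 3.85 and 3.62. Klf4, a factor of barrier formation, had 580 CPM in members and 575 CPM in the others, and Gata3 567 CPM in members and 390 CPM in the others. Vdr, the vitamin D receptor, had 24.2 CPM in members, 39.8 CPM in basal and 236 CPM in lower follicle barcodes.

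Regulators of basal and stem cells were lower in 22 of 38 measured cases outside the rule and higher in 1. Over all measured genes 13.7% were lower and 3.82% higher. Lgr6, a receptor of epidermal stem cells, had 7 UMIs in members and 1373 in the others, 79.5 times lower (38.5 to 198). Lgr5, a receptor of follicle stem cells, had 0 UMIs in members and 244.9 CPM in lower follicle barcodes. Id1, an inhibitor of helix-loop-helix factors, was the higher one, with 345 CPM in members, 90.0 CPM in basal and 560 CPM in lower follicle barcodes. With every barcode weighted the same, Id1 was within 2-fold of the other epithelial barcodes (log2 ratio 0.93), and likewise after thinning (0.98).

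Genes of the cell cycle were mostly lower, and those of mitosis at or near 0. Of 28 measured genes 22 were lower in members and 0 higher, beside 13.7% and 3.82% of all measured genes. The median was −3.01, or −1.81 without barcodes above the 95th percentile of UMIs and −2.40 with every barcode weighted the same. Mki67, a marker of cycling cells, had 0 UMIs in members, which allows up to 0.806 CPM, and 623 UMIs in the others, at least 84.2 times lower. Cenpf, a centromere protein of mitosis, had 1 UMI in members and 755 UMIs in the others. With 3 or more of 8 mitotic genes as the sign of a cycling barcode, 0 of 317 members qualified (exact interval up to 1.16%), against 41 of 712 basal barcodes, or 5.76% (4.16 to 7.73). Pcna, the sliding clamp of DNA replication, had 61.3 CPM in members and 67.4 CPM in the others. Of 19 genes of cell cycle exit and growth arrest 2 were higher and 5 lower, beside 3.82% and 13.7% of all measured genes. The growth arrest genes Cdkn1a (p21) and Cdkn2b (p15) had 596 and 24.2 CPM in members, against 249.5 and 1.63 CPM in the others. The G1 cyclins were lower, with Ccnd1 at 8.33 CPM in members and 96.7 CPM in the others, and Ccnd2 at 28.5 CPM in members and 313 CPM in the others.

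Of 17 measured cytokine and chemokine genes 3 were higher and 5 lower, and of 16 growth factor genes 1 was higher and 10 lower, beside 3.82% higher and 13.7% lower over all measured genes. Cxcl14, a chemokine made by resting epidermis, had 266 CPM in members and 1184 CPM in the others (4.46 times lower, 4.17 to 4.76). Il33, an alarmin, had 27.9 CPM in members and 133 CPM in the others, and Il1r2, the decoy receptor of interleukin 1, 14 UMIs in members and 1174 UMIs in the others. Ccl27a, a chemokine that attracts skin-homing T cells, had 716 CPM in members and 1447 CPM in the others, and without the barcodes that carried 3 markers of another cell type it was within 2-fold (log2 ratio −0.94). Il1b, an inflammatory cytokine counted as higher, had 33 UMIs in members, all in 10 barcodes, against 24 UMIs in the others and 702 CPM in immune barcodes, and its log2 ratio of 1.75 was −0.0598 without called doublets. Il34, the growth factor of Langerhans cells, was higher, at 277 CPM in members and 93.5 CPM in the others (ratio 2.96, 2.70 to 3.24). Areg, an EGF receptor ligand, had 93 UMIs in members and 28 in the others, with 76.3% of the members' UMIs in 10 barcodes, and Nrg1, another ligand of this receptor family, had 12 UMIs in members and 546 UMIs in the others. Ifitm3, an interferon-induced protein, had 80.6 CPM in members, 637 CPM in basal and 3518 CPM in fibroblast barcodes, while 20 of the 22 measured genes of interferon response and antigen presentation were within 2-fold. H2-K1, a class I histocompatibility gene, had 1098 CPM in members and 1269 CPM in the others.

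Of 13 measured antimicrobial genes 3 were higher and 4 lower, and of 15 retinoid and xenobiotic genes 4 were higher and 3 lower. Metabolism and redox held 30 measured genes, 1 higher and 3 lower, near the 3.82% and 13.7% of all measured genes. Pglyrp4, a peptidoglycan-binding protein, had 132 UMIs in members and 17 in the others (ratio 19.2, 11.5 to 33.9). Ptgs1, a cyclooxygenase, had 132 CPM in members and 13.5 CPM in the others, and Hpgds, a prostaglandin D synthase, had 191 CPM in members and 7.41 CPM in the others. Hal, histidine ammonia-lyase, which makes the urocanate of the skin surface, had 33.1 CPM in members and 0.654 CPM in the others, a ratio of 50.6 (22.6 to 140.5). Crabp2, a retinoic acid binding protein, had 29.8 CPM in members and 1.31 CPM in the others, and Prdx5, a peroxiredoxin, 730 CPM in members and 188 CPM in the others. Of 24 genes of calcium and lipid signalling 1 was higher and 3 lower, again near the shares of all measured genes. S100a6, a calcium-binding protein, was lower at 93.3 CPM in members and 1517 CPM in the others. Of 27 cytoskeleton genes 0 were higher and 6 lower, beside 3.82% and 13.7% of all measured genes. Actn1, an actin crosslinker, had 2.15 CPM in members and 47.2 CPM in the others. The 28 genes of dissociation stress, which the digestion itself can induce, were higher in 0 and lower in 3 cases. That is no more often than all measured genes (3.82% and 13.7%). The median was −0.34, and Fos had 1773 CPM in members and 2413 CPM in the others.

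The members were not uniform along the suprabasal keratin share. The 1029 interfollicular barcodes were split at shares of 0.1, 0.3, 0.5, 0.7, 0.85 and 0.95, which gave 626, 50, 36, 56, 54, 49 and 158 barcodes with median depths of 10826 to 12586 UMIs. Mt4 had 11.5, 330 and 659 CPM in the 3 basal ranges and 1296, 1157, 1899 and 1731 CPM in the 4 ranges of members. Krt77 had 31.4, 335 and 380 CPM in the basal ranges and 722, 1433, 1705 and 3722 CPM in members, highest in the last range. Krt78 had 0 UMIs below a share of 0.5 and then 1.56, 6.89, 27.7 and 119 CPM in the 4 ranges of members. Skint5 likewise had 10.9, 15.5, 42.3 and 264 CPM in the 4 ranges of members. Krt78 and Skint5 were thus concentrated at the highest shares, where Mt4 was no higher than in the range before.

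Hes1 and Notch3 were already high below the threshold. Hes1 had 64.9 CPM at the lowest shares, 418 and 588 CPM in the next 2 ranges, and 566, 431, 498 and 366 CPM in members, with its peak at shares of 0.3 to 0.7. Notch3 had 2.16, 27.1 and 62.5 CPM in the basal ranges and 59.3 to 86.5 CPM in members. Jag2 had 127 CPM at the lowest shares and 2.12 CPM at the highest. Krt15 had 7147, 9198 and 10783 CPM in the basal ranges and 9055, 7708, 6025 and 4764 CPM in members, so it stood highest next to the threshold. Krt14, a rule gene given here as a description, had 7335 CPM in the first range and 1234 CPM at shares of 0.3 to 0.5, where Krt5 still had 5296 CPM. Mki67 had 84.2 CPM in the first range and 0 UMIs in every other. The axis is made of Krt1, Krt10, Krtdap, Krt5 and Krt14 of the same barcodes, and each range rests on 1 library.

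**Figure D4:**
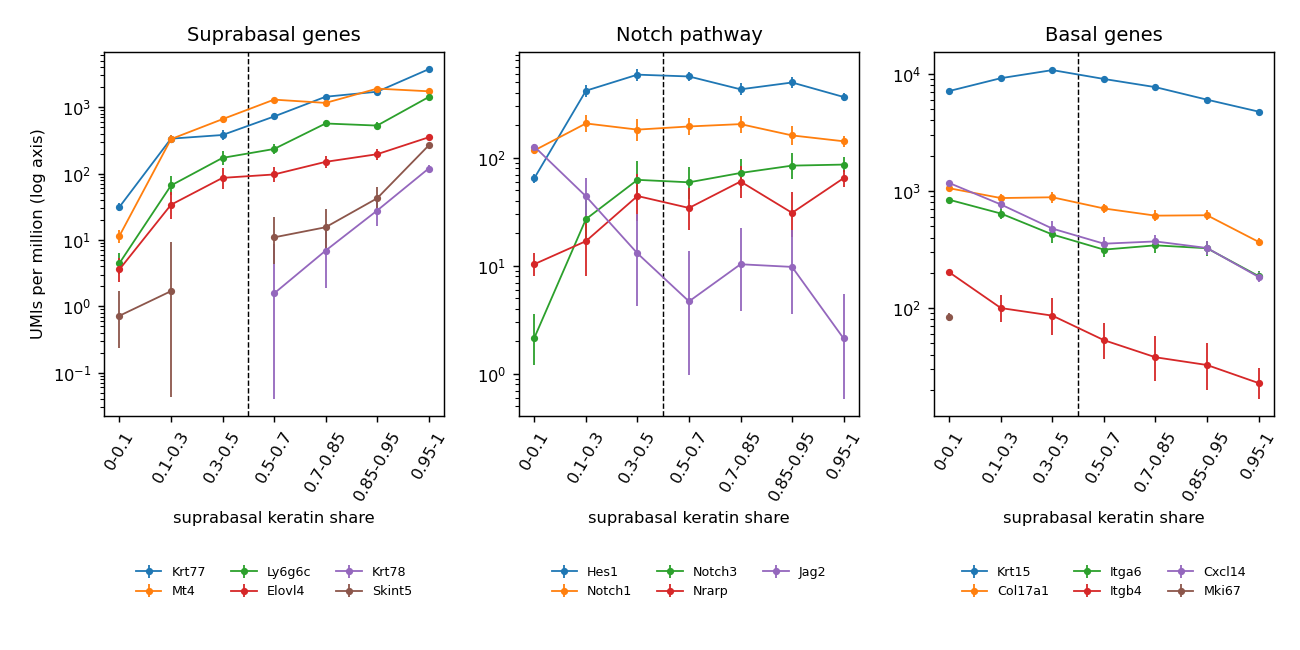
Levels in CPM (vertical log axis) of suprabasal, Notch pathway and basal genes in 7 ranges of the suprabasal keratin share (horizontal axis, low to high), with exact 95% Poisson intervals of counting error; ranges right of the dashed line are members, and values of 0 UMIs are not drawn. Hes1 and Krt15 are highest around the threshold, while Skint5 and Krt78 reach 264 and 119 CPM only at shares of 0.95 to 1.

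A second split ordered the 317 members by their cornified envelope genes, in 4 sets of 80, 79, 79 and 79 barcodes with median depths of 10250 to 13582 UMIs. The median suprabasal keratin share was 0.877, 0.908, 0.961 and 0.998 from the lowest to the highest set. Spink5 had 37.5, 158, 208 and 472 CPM and Skint6 259, 362, 531 and 902 CPM over these sets. The deepest member, in the highest set, held 117 of its 452 Spink5 UMIs. Krt15 had 8485, 6713, 5704 and 4363 CPM, and Hes1 474, 517, 449 and 297 CPM. Mt4, at 1488, 1878, 1482 and 1526 CPM, and Acer1, at 158 to 185 CPM, showed no steady order over the sets. The summed lipid barrier list had 1626, 2258, 2439 and 3221 CPM, and the summed desmosome list 3323, 4091, 4512 and 5707 CPM. The order was set by genes of the same barcodes, so these values describe how the genes vary together.

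Marker lists of other cells stood above their level in basal barcodes in some cases and below it in others. The 6 fibroblast markers summed to 73.9 CPM in members, 73.9 CPM in basal and 95.5 CPM in lower follicle barcodes, with 0 of the 6 at 0 UMIs in members. They include Dcn, which the rule held to at most 3 UMIs in each of these barcodes, so these levels were partly set by the choice. The 8 macrophage or dendritic markers summed to 127 CPM in members and 149 CPM in basal barcodes. At least 3 markers of the fibroblast, macrophage or dendritic, T or innate lymphoid, melanocyte or muscle lists were present in 29 members (9.15%) and 77 other epithelial barcodes (8.75%). The lower follicle list summed to 6.18 CPM in members, with Lgr5, Krt75 and Fgf5 at 0 UMIs, against 2458 CPM in lower follicle barcodes. It holds the rule genes Postn, Lhx2 and Sox9, so this difference was largely set by the choice. Its 2 measured genes outside the rule were lower than in lower follicle barcodes, with a median log2 ratio of −8.90. Over all 7972 genes measured in that comparison the median was −0.13. The Langerhans list summed to 181 CPM in members and 221 CPM in basal barcodes, and the sebocyte list to 141 CPM in members and 98.3 CPM in basal. The upper follicle list summed to 281 CPM in members and 262 CPM in basal, and Cst6 held 722 of its 1046 UMIs in members. Of 5 measured upper follicle markers, 1 was higher and 3 lower than in basal barcodes, with a median log2 ratio of −1.09. Over all genes measured against basal barcodes, 4.01% were higher and 11.4% lower. The muscle list stood at 232 CPM in members and 149 CPM in basal barcodes, and the Schwann list at 95.7 CPM in members and 54.0 CPM in basal, with Sox10 and S100b at 0 UMIs in members. Melanocyte, endothelial, pericyte and mast cell lists summed to 18.3, 1.34, 8.60 and 0.269 CPM in members, against 31.7, 1.89, 12.1 and 0.757 CPM in basal barcodes. The basal keratinocyte list had 8899 CPM in members and 21590 CPM in basal barcodes. It holds the rule genes Krt5 and Krt14, so much of this difference was set by the choice. Of its 4 measured genes outside the rule, 3 were lower than in basal barcodes, beside 11.4% of all measured genes. Their median log2 ratio was −1.34. Of the neutrophil markers, which summed to 0.806 CPM in members and 0.757 CPM in basal, S100a9, Retnlg and Ly6g had 0 UMIs in members. Without the 29 and 77 barcodes, 371 of 9995 measured genes were higher in members and 1353 lower. The part of this RNA in the other results was not tested.

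Hba-a1, an alpha globin chain of red blood cells, had 95 UMIs in 51 members, or 25.5 CPM, against 11 UMIs in the 880 other epithelial barcodes, or 1.20 CPM. The beta globin genes Hbb-bs and Hbb-bt had 0 UMIs in members, while the whole table held 5611 beta globin and 1814 Hba-a1 UMIs. Of the 95 UMIs, 86 were in members with a suprabasal keratin share above 0.95, and 14 were in the deepest member. Fibroblast barcodes had 0.158 CPM and immune barcodes (Ptprc at 2 UMIs or more) 1.05 CPM.

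Trbc2, a constant segment of the T cell receptor beta chain, had 330 UMIs in 157 of the 317 members, or 88.7 CPM, against 10.3 CPM in the other epithelial barcodes and 38.1 CPM in immune barcodes. The immune level is an average over all 1887 immune barcodes, of which 217 had Trbc2, and is not the level of T cells. The list of 6 T or innate lymphoid markers, which holds Trbc2, summed to 89.2 CPM in members and 8.20 CPM in basal barcodes, and the list of 4 red blood cell markers to 29.8 CPM in members and 2.02 CPM in basal. In the same members Cd3e and Cd3g, subunits of the T cell receptor complex, had 1 UMI each and Trdc had 0. Trbc1, the sister segment, had 17 UMIs in members, 11 of them in 1 barcode. Along the ranges of the suprabasal keratin share, Trbc2 had 6.47, 10.2 and 18.2 CPM below the threshold and 26.5, 79.2, 78.1 and 116 CPM in members. A source of these globin and receptor reads was not tested.

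**Figure D5:**
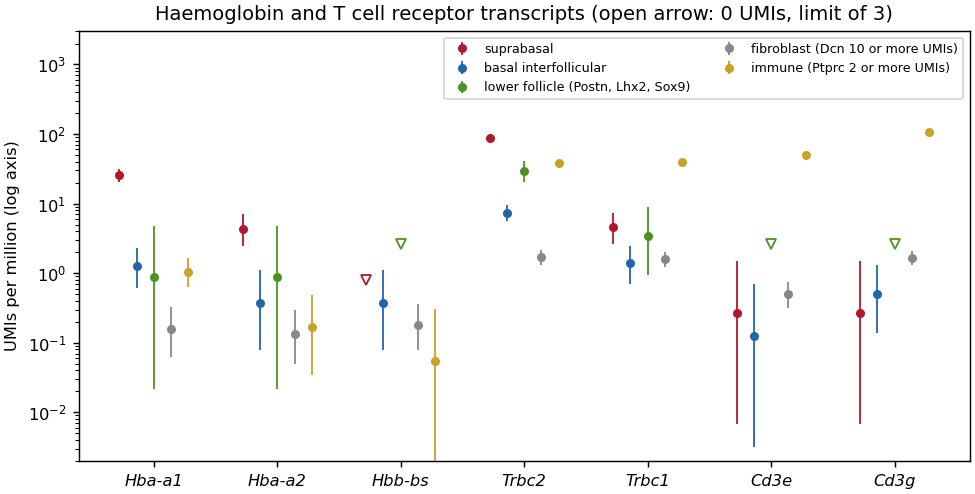
Levels of globin and T cell receptor transcripts in CPM (vertical log axis) in suprabasal members, basal interfollicular, lower follicle, fibroblast and immune barcodes, with exact 95% Poisson intervals of counting error; an open arrow marks 0 UMIs, drawn at the level of 3 UMIs. Hba-a1 and Trbc2 are highest in the members, while Hbb-bs, Cd3e and Cd3g have 0, 1 and 1 UMIs there.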

How the data were processed

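Droplet RNA sequencing of pooled control and neutrophil-depleted mouse skin gave 1 table of whole-number UMI counts for 32285 genes and 8367 barcodes, which the authors made with Cell Ranger on mm10, per the submitters' processing notes (version not given in the sources used here). The deposited counts are not normalized. Barcodes have 500 to 58199 UMIs. Which filter defined a barcode is not given in the sources used here. No condition was assigned to a barcode.

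Barcodes were chosen by the rule given above. The members, the 25 gene lists (762 genes, 753 in the table) and the 17 marker lists were chosen with earlier results of these data known, so list counts are descriptions. UMIs were summed per group and scaled to CPM. Genes with 50 UMIs or more over both groups count as measured. Ratios are of CPM, log2 ratios add 0.5 UMIs to each sum, and 2-fold or more counts as higher or lower. A planned comparison with the 10 Krt79 barcodes was not made. Intervals are exact Poisson, binomial (Clopper-Pearson) and conditional, at 95%; a count of 0 allows up to 3. Genes named were, per gene or marker list, the 3 highest in CPM and the 3 largest and 3 smallest log2 ratios, then the 20 largest and 15 smallest over all genes with 200 UMIs. Sbsn, Abca12, Tgm1, Tgm3, Dsc1, Flg, Rbpj, Jag1, Ovol1, Grhl1, Cebpa, Lgr6, Gsdma and Trbc1 fell outside that rule and were named after their values were seen. Doublets called by scrublet (Scanpy 1.11.5) were kept: 305 of 8127 barcodes that passed quality (3.75%), 2 of them members. Alternatives varied quality limits, doublets, weights, scaling, thresholds and depth. The contrast was tested on simulated data. Some genes of the lists are not reported here by name. Positions are from GENCODE vM21. Python 3.11.15, NumPy 2.4.6, SciPy 1.17.1, pandas 2.3.3 and matplotlib 3.10.9 were used.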

Additional observations from a re-analysis of the deposited data

How the results depend on the processing

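No paired analysis was possible because the series gives 1 library with no replicate numbers. With no minimum of UMIs per gene, 1882 genes were higher and 5741 lower than in other epithelial barcodes, and 2220 and 4814 against basal barcodes, over 18341 and 17803 genes. A minimum of 200 UMIs gave 238 and 671, and 232 and 542, over 6812 and 6364 genes. Thinning each barcode to 2000 UMIs gave 241 and 696, and 210 and 503, over 5857 and 5191 genes. These settings test other numbers of genes. The number of members was 239 with Dcn at 0 UMIs and 273 with suprabasal keratins at least 2 times the basal ones. Leaving out the deepest member or barcodes with markers of another cell type, chosen after the data were seen, gave 375 and 371 higher genes. The settings were applied to 124 genes, among them the rule genes Krt1, Krt10, Krtdap, Krt5 and Krt14, whose direction the rule itself set. Over these genes and 11 settings, 1087 of 1089 log2 ratios that were past 2-fold kept their sign and 1075 stayed past it. The exception was Il1b, with a log2 ratio of 1.75 that was −0.0598 without called doublets and −0.58 under the stricter keratin threshold. The cause was not tested, and Il1b is counted among the 3 higher cytokine genes. All 8 list medians past 2-fold stayed past it in these settings. The median of basal and follicle keratins was the value of Krt17 in the main setting. Depth limits the rare genes: a gene at 0 UMIs in members may have up to 0.806 CPM.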

Other observations

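Among the genes with the largest ratios outside the lists, 4833423E24Rik, which the table gives by its clone name, had 413 UMIs in members, or 111 CPM, against 0.763 CPM in the other epithelial barcodes, a ratio of 146 (70.0 to 364). Tesc, a calcium-binding protein, had 338 UMIs in members and 12 in the others. Orm1, an acute phase glycoprotein, had 253 UMIs in members and 11 in the others, a ratio of 56.8, or 30.5 without the deepest member. Gsta2, a glutathione transferase, had 75.5 CPM in members and 3.16 CPM in the others. Gsdma, a gasdermin of the epidermis, was below 50 UMIs and was singled out after its values were seen, with 34 UMIs in members and 0 in the others, at least 28.0-fold higher against a floor of 3 UMIs.

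Acta1, the skeletal muscle actin, had 461 UMIs in members (124 CPM) against 54.8 CPM in the others, and 201 and 195 of these UMIs were in 2 barcodes.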
